A study of Mus musculus with 9 samples.

Results

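Imprinted genes are expressed mainly from either the copy inherited from the mother or the copy inherited from the father, and many of them act on fetal growth. The genes described here are imprinted genes other than the insulin-like growth factor pathway members of that class. They were the features of the count table whose symbol was Meg3, Rian, Mirg, Cdkn1c, Plagl1, Grb10, Peg3, Mest, Ndn or Zim1, and all 10 were found among 32285 mouse genes. The cells came from brain tumors of NestinCreERT2;Fus1 mice (5 mice) and from brains of control mice (4 mice) with the genotype NestinCreERT2;TdT, all 6 to 8 weeks old. Fus1 stands for the ZFTA-RELA fusion, the oncogene of a supratentorial ependymoma, which is silent in the Rosa26 locus until Cre recombination. Both groups carried the CreERT2 recombinase under the Nestin promoter, which is active in neural stem and progenitor cells, so the fusion was switched on in such cells and passed on to their descendants. Cells were sorted to remove erythroid and dead cells, and transcripts were counted with unique molecular identifiers (UMIs) from 5′ droplet libraries, 1 library a mouse.

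In the brain, imprinted genes are best known from neurons and from growing progenitors. Meg3, Rian and Mirg are long noncoding RNAs transcribed in 1 direction from the maternal chromosome next to Dlk1, and they carry small RNAs in their introns and exons. Cdkn1c encodes p57, an inhibitor of cyclin-dependent kinases that restrains the cell cycle. Plagl1 and Peg3 encode zinc finger transcription factors, Grb10 an adaptor that dampens insulin receptor signaling, Mest a membrane protein of the hydrolase fold, and Ndn the protein necdin of postmitotic neurons. Zim1 is a zinc finger gene next to Peg3.

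The genes lay at 7 places of the genome (build GRCm38, which is mm10, gene models of GENCODE vM21). Meg3 (chr12:109541001-109571726), Rian (chr12:109603940-109661716) and Mirg (chr12:109729764-109749460) followed each other on the plus strand over 208 kb. Peg3 (chr7:6703892-6730431) and Zim1 (chr7:6671269-6696450) were neighbors on the minus strand. Ndn (chr7:62346569-62350262) and Cdkn1c (chr7:143458339-143461050, minus strand) lay elsewhere on the same chromosome. Plagl1 was at chr10:13060504-13131694, Grb10 at chr11:11930508-12038683 on the minus strand, and Mest at chr6:30723547-30748465. Of the overlapping genes that had a row of their own, Cdkn1c overlapped Gm44732, Mest overlapped Gm44296 and Copg2, and Ndn overlapped Gm32061, each on the other strand.

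The noncoding transcripts of chromosome 12 span one of the densest miRNA clusters of the mouse genome. In RefSeq (GRCm38.p6), 54 of 1005 miRNA hairpins lay between the start of Meg3 and the end of Mirg on the same strand. The Meg3 gene held 1 hairpin, Rian 3 and Mirg 14. Mature miRNAs, counted on their own, were 3, 6 and 26. In Meg3, miR-1906 (from chr12:109544588) lay far from miR-770-5p (from chr12:109563710), so the 1 hairpin counted cannot hold all 3. These 35 mature sequences had 34 different seeds, the bases that pair with targets. The sequences below show what each host transcript carries, with the seed (bases 2 to 8) in capitals. The first comes from Meg3, the next from Rian and the other 5 from Mirg, and the last pair are the 2 miRNAs that share a seed.
mmu-miR-770-5p: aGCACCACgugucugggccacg
mmu-miR-370-3p: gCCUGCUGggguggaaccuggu
mmu-miR-382-5p: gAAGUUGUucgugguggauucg
mmu-miR-134-5p: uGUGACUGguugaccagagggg
mmu-miR-410-3p: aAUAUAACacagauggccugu
mmu-miR-453: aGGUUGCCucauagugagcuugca
mmu-miR-496a-5p: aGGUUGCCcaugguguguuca
The libraries counted the long host transcripts, and the levels of these mature miRNAs were not measured.

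Meg3 and Rian were both lower in the tumors over all kept cells and in microglia-like and oligodendrocyte-like cells, so their starts are shown from RefSeq (GRCm38.p6), from 250 bases before to 50 bases after the transcript start. The CG pairs, which read the same on both strands and are the bases that carry DNA methylation, are in capitals. The Meg3 window shown (chr12:109540746-109541045, plus strand) held 13 CG pairs, and another Meg3 window (chr12:109545148-109545447, plus strand) held 1. The Rian window (chr12:109603695-109603994, plus strand) held 0. The median over 32851 windows of this length was 7, and 94.6% of them held at least 1. Among the other genes, a Grb10 window held the most, 45, and the Mirg window held 10. Cdkn1c was matched to no window.
Meg3: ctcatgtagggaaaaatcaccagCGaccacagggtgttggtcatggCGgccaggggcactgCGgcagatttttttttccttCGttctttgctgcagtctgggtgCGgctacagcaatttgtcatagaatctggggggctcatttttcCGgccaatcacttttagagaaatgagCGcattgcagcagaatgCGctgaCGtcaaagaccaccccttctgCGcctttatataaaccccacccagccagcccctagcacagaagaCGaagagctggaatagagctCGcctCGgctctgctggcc
Rian: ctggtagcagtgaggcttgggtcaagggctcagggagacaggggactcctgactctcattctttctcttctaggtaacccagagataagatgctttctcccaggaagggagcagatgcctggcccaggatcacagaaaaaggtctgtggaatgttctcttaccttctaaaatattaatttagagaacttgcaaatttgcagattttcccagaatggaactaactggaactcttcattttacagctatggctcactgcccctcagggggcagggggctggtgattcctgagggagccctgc

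The 9 libraries held 14967680 to 178086164 UMIs, and 20405 control cells and 15916 tumor cells were kept. Cells were sorted into classes by fixed marker genes, and a class is called by its markers with the ending "-like". Neuron-like cells were 63.0% to 75.7% of the kept control cells but 0.0586% to 30.6% of the tumor cells, and progenitor-like cells, of which each control had at most 2, were 1.31% to 42.4% of the tumor cells. The library tumor 1 stood apart, with 9 cells that carried at least 2 UMIs of the fusion allele against 25 to 2730 in the other 4 tumors and 0 in the controls. RNA from broken cells was in the droplets. From neuron markers in microglia-like and endothelial-like cells it was estimated at 52.1% to 64.5% of the UMIs of such cells in controls and 11% to 24.9% in tumors. Where free RNA was subtracted, this share of a library was used for all its classes and for all kept cells. Counts below the amount subtracted were set to 0. Whether the share holds for other classes, such as neuron-like cells, was not tested. The make-up of this free RNA was taken from the smallest 3000 barcodes of every library, whose median depth was 559 to 1338 UMIs. The deposited barcodes start at 468 to 517 UMIs, so these may hold damaged cells as well as empty droplets, which was not tested, and its values are given beside the results it touches.

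Over all kept cells, the noncoding RNAs of chromosome 12, Grb10 and Peg3 fell in the tumors, and Cdkn1c and Mest rose. Of the 10 genes, all of which passed the filter on low counts, 2 were higher, where 32.3% of all 17598 tested genes were, and 5 were lower, where 29.4% were (edgeR quasi-likelihood test, Benjamini-Hochberg adjusted p under 0.05). Their median log2 fold change was -1.08, against 0.04 over all genes. In these sums, fewer cells of a type and less RNA per cell cannot be told apart, and the share of neuron-like cells fell with the same contrast.

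**Figure D1:**
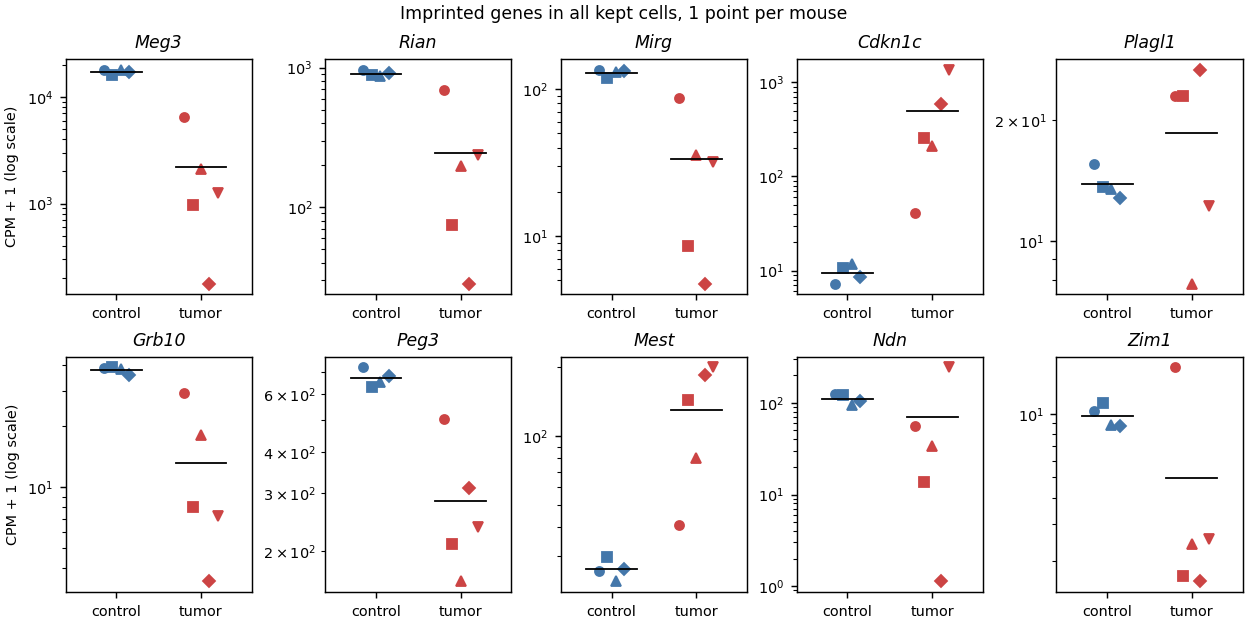
Counts per 1000000 UMIs plus 1 (CPM, log axis, a scale of its own in each panel) of the 10 imprinted genes in all kept cells, with 1 point per mouse (controls blue, tumors red, the symbol gives the replicate number) and a line at the mean of each group. The 5 tumors lie above the 4 controls for Cdkn1c and Mest, below them for Meg3, Rian, Mirg, Grb10 and Peg3, and overlap them for Plagl1, Ndn and Zim1.

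Meg3, a noncoding RNA that is abundant in neurons, fell furthest of the 3 chromosome 12 transcripts. Its levels in controls 1 to 4 were 17982, 16062, 18003 and 17304 CPM (counts per 1000000 UMIs), and in tumors 1 to 5 they were 6451, 975, 2114, 176 and 1245 CPM. Every tumor was below every control, and tumor 4, with the fewest neuron-like cells, was lowest. The log2 fold change was -2.89 ± 0.75 (SE; adjusted p = 0.00849, edgeR quasi-likelihood test). The mean fell from 17338 ± 910 CPM (SD, n = 4) to 2192 ± 2479 CPM (SD, n = 5).

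Rian, the next transcript along the chromosome and a host of small nucleolar RNAs, had 964, 881, 864 and 914 CPM in the controls. The tumors had 687, 73.5, 195, 27.3 and 237 CPM, in the same order of mice as Meg3 apart from tumors 3 and 5. Its log2 fold change was -1.79 ± 0.66 (edgeR adjusted p = 0.0378). Mirg, the miRNA host at the end of the cluster, had 118 to 134 CPM in the controls and 86.2, 7.52, 34.4, 3.75 and 30.8 CPM in the tumors. It changed by -1.89 ± 0.65 (edgeR adjusted p = 0.0293). The calls of both Rian and Mirg were lost when control 1, 2, 3 or 4 or tumor 2, 3 or 5 was left out, with adjusted p of 0.0657 to 0.0775 for Rian and 0.0506 to 0.0565 for Mirg. The Meg3 call was kept without any single mouse but was lost with free RNA subtracted (-3.61, adjusted p = 0.0985). The share subtracted was that of microglia-like and endothelial-like cells, whereas most kept control cells were neuron-like.

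Cdkn1c, the kinase inhibitor gene, was low in control brain and high in the tumors. The controls had 6.25, 9.53, 10.8 and 7.46 CPM, and the tumors had 40.3, 257, 209, 589 and 1362 CPM. Tumor 1, with few cells carrying the fusion allele, was lowest and still above all controls. The log2 fold change was 6.18 ± 1.03 (edgeR adjusted p = 0.000963). Mest, a gene of fetal growth, had 24.9, 28.7, 22.3 and 25.3 CPM in controls and 40.0, 143, 79.6, 184 and 198 CPM in tumors. It rose by 2.68 ± 0.51 (edgeR adjusted p = 0.00182). Tumor 1 was again the lowest of the tumors. Both calls were kept under every alternative run.

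Plagl1, a zinc finger gene that promotes growth arrest, had 11.8 to 14.6 CPM in controls and 22.0, 22.0, 6.82, 25.8 and 11.2 CPM in tumors. The groups overlapped, and the log2 difference of 0.75 ± 0.40 did not pass (edgeR adjusted p = 0.129), although it did without tumor 3 (0.98, adjusted p = 0.0154). Grb10, the adaptor gene, had 35 to 38.1 CPM in controls and 28.3, 7.05, 17.0, 2.44 and 6.21 CPM in tumors. It fell by 1.51 on the log2 scale (SE 0.49, edgeR adjusted p = 0.0237), a call lost without tumor 2 (adjusted p = 0.056) or tumor 5 (adjusted p = 0.0533).

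Peg3, a zinc finger gene widely expressed in the brain, had the smallest log2 change of the 5 genes that fell. The controls had 631 to 724 CPM, and the tumors had 502, 209, 160, 310 and 236 CPM. It changed by -1.01 ± 0.30 (edgeR adjusted p = 0.0146), and the call was kept under every alternative run. Its neighbor Zim1 had 7.79 to 10.2 CPM in controls and 15.6, 0.711, 1.42, 0.611 and 1.55 CPM in tumors. Tumor 1 was above all controls and the other 4 tumors were below them, and the log2 difference was -1.15 ± 0.83 (edgeR adjusted p = 0.246). Without tumor 1 it was -2.78 with an adjusted p of 0.000128.

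Ndn, the necdin gene, had the widest ratio between its lowest and highest tumor. It had 124, 119, 93.8 and 105 CPM in the controls and 54.4, 12.9, 32.8, 0.133 and 243 CPM in the tumors. The last pair of values stand for 5 UMIs among 37644349 in tumor 4 and 3907 UMIs among 16092478 in tumor 5. The log2 difference between groups was -0.45 ± 1.16 (edgeR adjusted p = 0.75), with 4 tumors below and 1 above the controls. Its sign turned with free RNA subtracted, because the scaled free RNA exceeded the Ndn counts in controls.

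The genes that border these members did not all follow them. Of the 57 other imprinted genes listed, 25 lay within 1 Mb of a member, a limit chosen after their values were seen, and 19 of these were tested over all kept cells. Of these tested neighbors 10 were higher, Igf2, H19 and Dlk1 among them, where 32.3% of all 17598 tested genes were. Another 4 were lower, where 29.4% were, and 5 did not pass. Around Cdkn1c, Kcnq1 rose by 2.82 on the log2 scale, Cd81 by 2.24, Ascl2 by 2.62, Tssc4 by 1.25 and Nap1l4 by 0.94 (edgeR adjusted p from 0.000294 to 0.00841). Kcnq1 rested on 2 to 10 and Ascl2 on 1 to 6 UMIs a control. The noncoding Kcnq1ot1 of the same region fell by 1.39 (edgeR adjusted p = 0.00412), and Osbpl5 (-0.46, edgeR adjusted p = 0.206) and Th (-1.28, edgeR adjusted p = 0.121) did not pass. Beside Meg3 and Rian, Rtl1 fell by 2.57 (edgeR adjusted p = 0.00555), whereas Begain rose by 1.18 (edgeR adjusted p = 0.0346). Beside Peg3, Usp29 fell by 1.16 and Zim3, with 0 to 5 UMIs a tumor, fell by 4.10 (edgeR adjusted p of 0.00166 and 0.00329). Beside Ndn, Mkrn3 rose by 1.63 (edgeR adjusted p = 0.028), and Magel2 did not pass (-1.43, edgeR adjusted p = 0.195). Ddc beside Grb10 (0.76, edgeR adjusted p = 0.0805) and Copg2, which overlaps Mest on the other strand (-0.01, edgeR adjusted p = 0.975), did not pass.

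Over a longer list of 57 other imprinted genes, 47 were tested in all kept cells, and 17 were higher and 16 lower (32.3% and 29.4% of all genes), with a median log2 fold change of 0.35. Among those called, the largest increases beside the Igf2 pathway were of Tfpi2 at 6.58, Nnat at 4.15 and Kcnq1 at 2.82, and the largest decreases were of Zim3 at -4.10, Slc38a4 at -2.69 and Rtl1 at -2.57. Tfpi2 had 0 or 1 UMIs a control and 4 to 78 a tumor, and Kcnq1 had 2 to 10 and 12 to 73. These genes passed the filter through the tumors. Zim3 had 0 to 5 and Slc38a4 0 to 6 UMIs a tumor, and both passed it through the controls. Nnat, which encodes the small membrane protein neuronatin, averaged 125 CPM in controls and 1793 CPM in tumors. Igf2, H19 and Dlk1, which are described only for comparison, averaged 23.3, 0.172 and 13.7 CPM in controls and 1293, 478 and 1462 CPM in tumors.

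By class, Meg3 was far higher in neuron-like cells of both groups than in glial, immune and vessel classes. Neuron-like cells had 18751, 16555, 19178 and 17852 CPM in the controls and 15887, 10049, 14366 and 9172 CPM in tumors 1, 2, 3 and 5. Tumor 4, with 3 neuron-like cells, had no value. In the tumors, progenitor-like cells had 2001, 309, 902, 156 and 1201 CPM, and cells with the fusion allele had 249, 1074, 188 and 1158 CPM in tumors 2 to 5. Free RNA held 1021 to 1312 CPM of Meg3 in controls and 303 to 3570 CPM in tumors, and progenitor-like cells were above the free RNA of their own library in tumors 1 and 5 and below it in tumors 2, 3 and 4. Mural-like cells, the contractile cells around vessels, had 1385, 679, 864 and 1199 CPM in tumors 2 to 5. In tumor 4 they stood above the free RNA of their library, which had 303 CPM, and above its endothelial-like cells, which had 12.9 CPM.

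**Figure D2:**
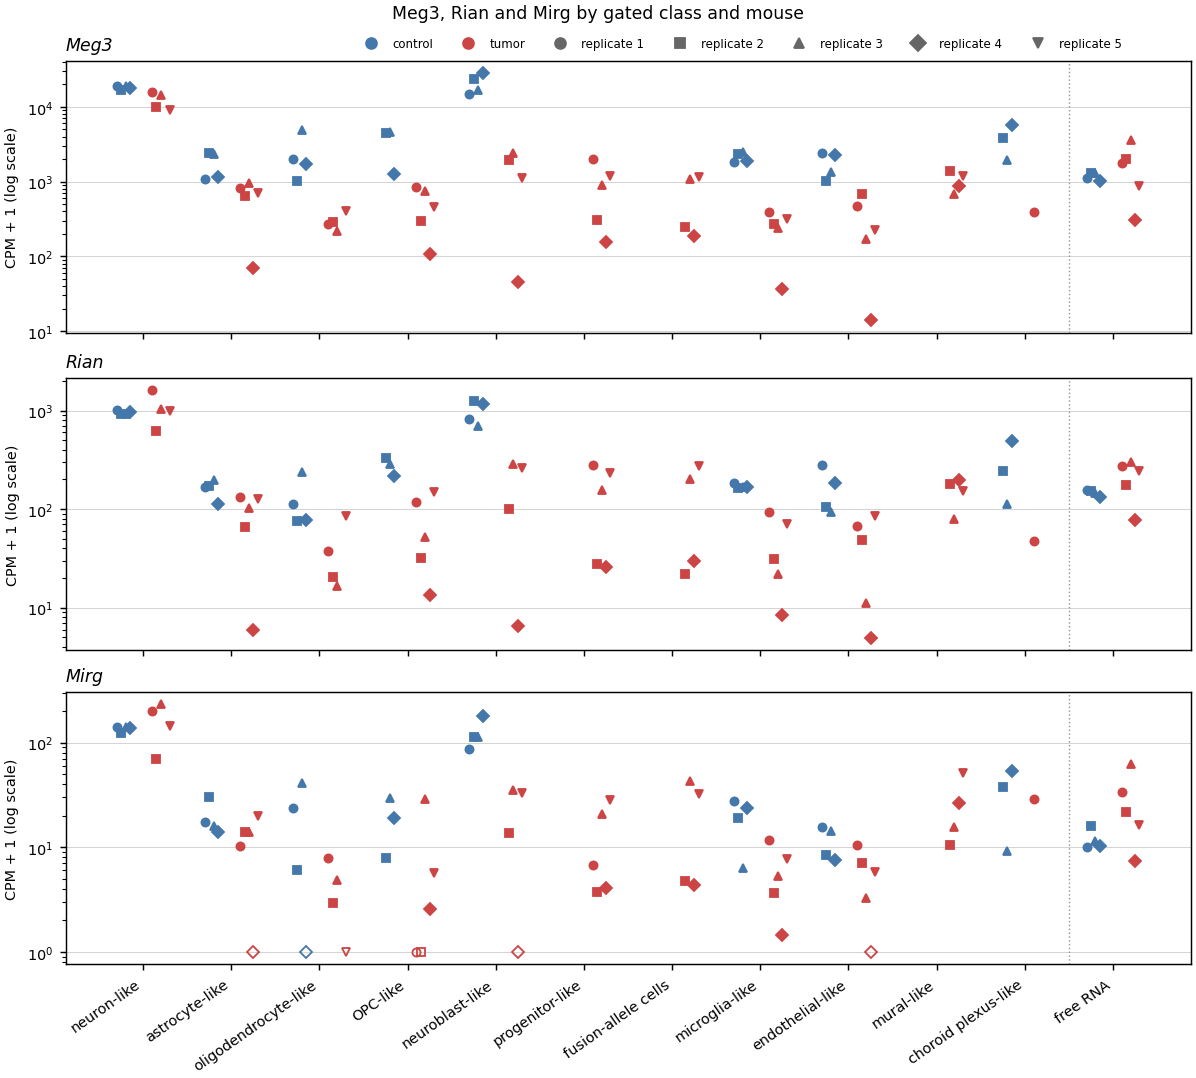
Meg3, Rian and Mirg in counts per 1000000 UMIs plus 1 (CPM, log axis) by marker-gated class, 1 point per mouse with at least 20 cells of the class (controls blue, tumors red, open symbols at 0 UMIs), with the free RNA of each library at the right. Neuron-like cells of both groups, and neuroblast-like cells of controls, lie highest for all 3 genes, and tumor 4 lies lowest in most other classes.

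Control neuroblast-like cells were few, 20 to 41 a mouse, and also high in Meg3 (14970 to 28367 CPM), and they carried neuron markers at 3490 to 4268 CPM, the level of neuron-like cells. The neuroblast-like cells of tumors 2 to 5 had 1920, 2399, 44.3 and 1112 CPM.

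Cdkn1c was high in progenitor-like cells of all 5 tumors and in cells with the fusion allele, although in tumor 2 its neuron-like cells were higher than its progenitor-like cells. Progenitor-like cells had 305, 220, 1298, 569 and 1763 CPM in tumors 1 to 5. Cells with the fusion allele were chosen by UMIs of that allele, with astrocyte-like cells left out. They had 387, 1372, 764 and 2376 CPM in tumors 2 to 5. Oligodendrocyte precursor-like cells had 1029 and 1008 CPM in tumors 2 and 4 but 23.4, 193 and 270 CPM in tumors 1, 3 and 5. Neuroblast-like cells had 163, 96.8, 149 and 1493 CPM in tumors 2 to 5. Among normal classes of control brains, choroid plexus-like cells had 161, 291 and 118 CPM in controls 2 to 4, and neuron-like cells 4.32 to 5.52 CPM.

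**Figure D3:**
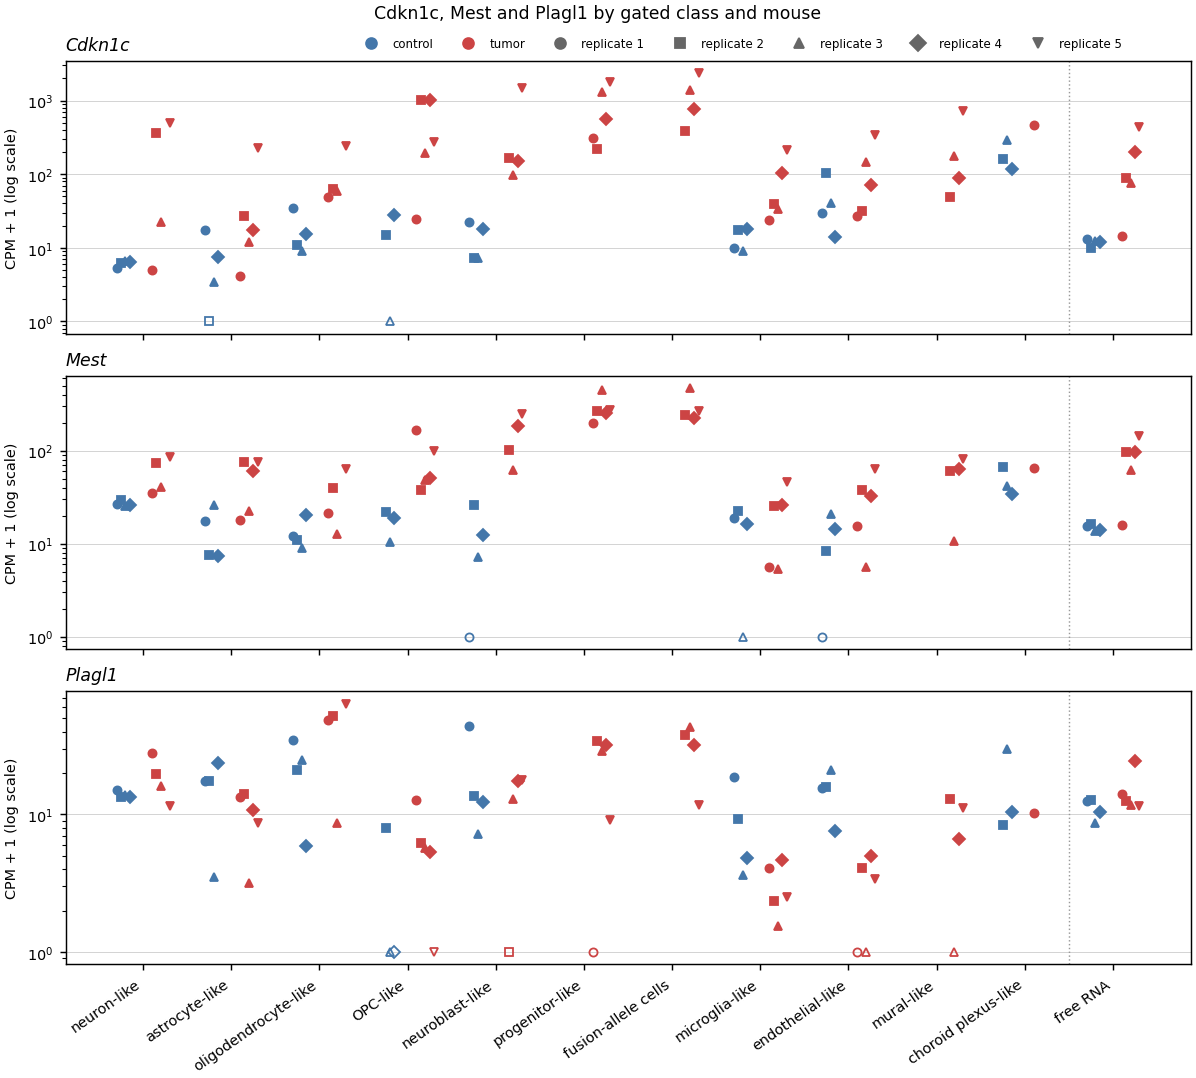
Cdkn1c, Mest and Plagl1 in counts per 1000000 UMIs plus 1 (CPM, log axis) by marker-gated class, 1 point per mouse with at least 20 cells (controls blue, tumors red, open symbols at 0 UMIs), with free RNA at the right. Progenitor-like cells and cells with the fusion allele reach highest for Mest, and for Cdkn1c the progenitor-like cells span 220 to 1763 CPM.

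Cells were also thinned to 2000 UMIs each, so that shares of cells with a UMI could be set side by side. On that scale 25%, 20.6%, 42.5%, 38.5% and 59.2% of the progenitor-like cells of tumors 1 to 5 held a Cdkn1c UMI, and without thinning 41.9%, 37.6%, 48.9%, 62.7% and 69.3%. For tumor 4, with most such cells, the exact 95% binomial interval of the thinned share, which covers counting error only, was 36.5% to 40.6%. Microglia-like cells, which stand for the background, had 3.41%, 4.02%, 6.61%, 9.14% and 27.0% after thinning. The median depth before thinning was 3514 to 7620 UMIs in progenitor-like and 2423 to 6099 UMIs in microglia-like cells of the tumors. In each tumor the progenitor-like share was above the microglia-like share.

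Mest had 195, 267, 448, 251 and 272 CPM in progenitor-like cells, a narrower range between tumors than Cdkn1c. Cells with the fusion allele had 241, 469, 222 and 266 CPM in tumors 2 to 5. Its thinned shares in progenitor-like cells were 35.7%, 37.0%, 39.7%, 35.1% and 35.9%, so that the 5 tumors lay within 5 percentage points of each other. Plagl1 had 0, 33.3, 27.8, 31.2 and 8.11 CPM in progenitor-like cells, where the 0 of tumor 1 comes from 31 cells. In oligodendrocyte-like cells, where it was not tested, it had 33.7, 20.0, 23.9 and 4.84 CPM in controls, from 1 to 4 UMIs each, and 47.9, 50.6, 7.70 and 63.0 CPM in tumors 1, 2, 3 and 5, from 2 to 26 UMIs.

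Grb10 was higher in endothelial-like than in progenitor-like cells of each tumor. Endothelial-like cells had 87.2, 29.4, 46.7 and 46.3 CPM in controls and 48.0, 61.1, 68.5, 40.7 and 38.2 CPM in tumors, and the tumors lay within the range of the controls. Mural-like cells had 76.3, 97.0, 31.2 and 60.4 CPM in tumors 2 to 5. Progenitor-like cells had 5.75, 0.988, 0, 0.439 and 1.35 CPM, and neuron-like cells 35.6 to 38.6 CPM in controls and 14 to 58.1 CPM in tumors. Free RNA held 14.9 to 25.9 CPM in controls and 0.581 to 20.5 CPM in tumors, so the endothelial-like level was above it in each mouse.

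**Figure D4:**
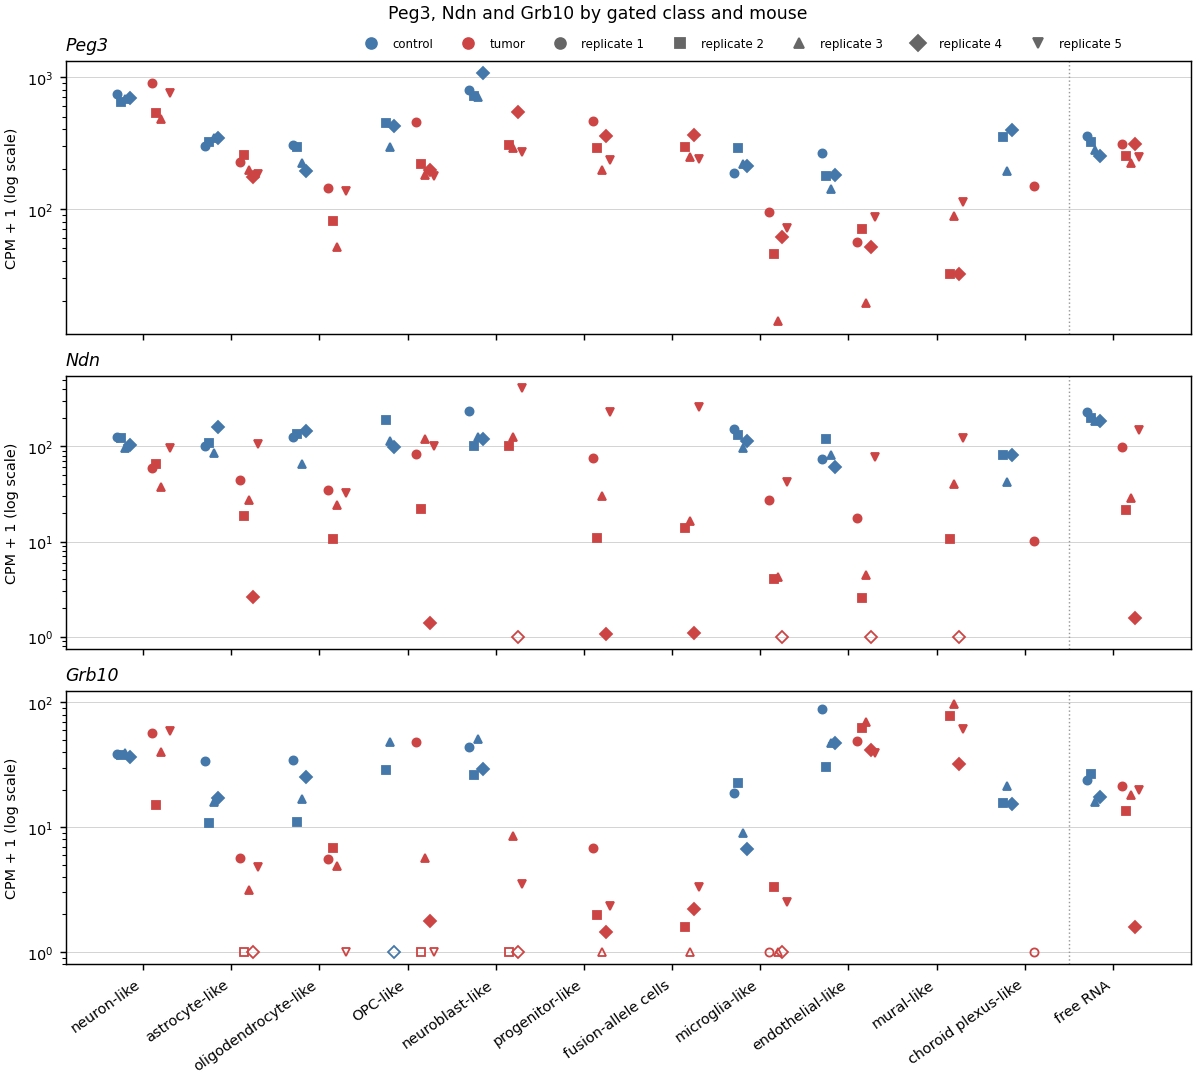
Peg3, Ndn and Grb10 in counts per 1000000 UMIs plus 1 (CPM, log axis) by marker-gated class, 1 point per mouse with at least 20 cells (controls blue, tumors red, open symbols at 0 UMIs), with free RNA at the right. For Grb10 the tumors stay at the control level in endothelial-like cells, and for Ndn tumor 4 lies at or near 0 in every class shown.

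Peg3 was present in all classes. Neuron-like cells had 648 to 742 CPM in controls and 479 to 906 CPM in tumors, progenitor-like cells 460, 287, 194, 358 and 232 CPM, and microglia-like cells of tumors 13 to 93.4 CPM. Zim1 in neuron-like cells had 32.2, 1.56, 0 and 26.4 CPM in tumors 1, 2, 3 and 5 against 6.32 to 10.2 CPM in controls. The tumor 5 value rests on few UMIs, as its neuron-like sum was 189365 UMIs against at least 9775010 in controls. Control astrocyte-like cells had 3.28 to 16.6 CPM of Zim1. Ndn in progenitor-like cells was 74.7, 9.88, 29.4, 0.0549 and 229 CPM, in the same order of tumors as in all kept cells. The 0.0549 CPM of tumor 4 was 1 UMI among 18224277, and its microglia-like and endothelial-like cells had 0 UMIs, which allows up to 1.38 and 2.98 CPM. Neuroblast-like cells had 100.4, 124, 0 and 407 CPM of Ndn in tumors 2 to 5, where the 0 of tumor 4 allows up to 16.6 CPM.

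In neuron-like cells, tumors 1, 2, 3 and 5 were compared with the 4 controls. The sum of tumor 5 was the smallest, with 189365 UMIs against at least 9775010 in controls. Cdkn1c and Mest were higher and Ndn lower, and Meg3, Rian, Mirg and the other members did not pass. That is 2 of 10 genes higher, where 8.99% of 14665 genes were, and 1 lower, where 9.37% were. The median of the members was 0.10 and that of all genes -0.0020. Cdkn1c had 4.02, 358, 21.2 and 491 CPM in the tumors, so that tumor 1 was at the control level, and its log2 fold change was 5.09 ± 0.89 (edgeR adjusted p = 0.00209). The same libraries had 13.7, 86.8, 75.5 and 435 CPM of Cdkn1c in free RNA. The neuron-like level was above that of free RNA in tumors 2 and 5 and below it in tumors 1 and 3. The share of UMIs subtracted was 11% to 24.9% in these tumors. With free RNA subtracted the gene no longer passed the filter on low counts, so that no test was left. The lost test does not measure how much of the Cdkn1c in tumors 2 and 5 was free RNA, which was not tested. The call was lost with limma voom (2.49, adjusted p = 0.179) and with the replicate block.

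Mest in neuron-like cells had 24.1 to 28.8 CPM in controls and 34.2, 73.2, 39.4 and 84.5 CPM in tumors, above the controls in each (0.87 ± 0.24, edgeR adjusted p = 0.0253). The call was lost without control 1, 3 or 4, tumor 2 or tumor 5 (adjusted p from 0.0577 to 0.138). It was also lost with limma voom and with the replicate block, and under 9 alternatives in all. Ndn had 94.7 to 123 CPM in controls and 58.4, 63.9, 36.4 and 95 CPM in tumors, with tumor 5 just above the lowest control (-0.96 ± 0.22, edgeR adjusted p = 0.00866). The sign of Ndn turned with free RNA subtracted (10.44, adjusted p = 0.000328), and with the 10% mitochondrial limit its call was lost (-0.64, adjusted p = 0.138). Meg3 in neuron-like cells was lower in each tumor than in each control, but its log2 difference of -0.67 ± 0.30 did not pass (edgeR adjusted p = 0.133), and Rian (0.04 ± 0.27) and Mirg (0.11 ± 0.26) had smaller ones. Without tumor 1, the values were -0.29 for Rian and -0.13 for Mirg.

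In microglia-like cells, the resident macrophages of the brain, 6 of the 10 genes passed the filter. Cdkn1c was higher, 1 gene where 20.6% of 8508 genes were higher, and Meg3, Rian, Peg3 and Ndn were lower, 4 genes where 23.8% were. The members had a median of -1.62 and all genes of -0.02. Meg3 had 1806, 2300, 2513 and 1899 CPM in controls and 390, 273, 235, 35.3 and 311 CPM in tumors (-2.72 ± 0.46, edgeR adjusted p = 0.000591). Neuron markers summed to 2650 to 3248 CPM in the same control cells and 63.8 to 775 CPM in the tumor cells. The ratio of the level in microglia-like cells to that in free RNA had a median of 1.81 in controls and 0.137 in tumors for Meg3, and of 0.649 and 0.171 for the neuron marker Snap25. The call was kept with free RNA subtracted (-6.10, adjusted p = 0.0131). In tumors 2 and 4 the free RNA subtracted exceeded the Meg3 counts, which were set to 0, and the larger change rests in part on this.

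Rian in microglia-like cells changed by -1.65 ± 0.49 (edgeR adjusted p = 0.0158), a call lost without control 1, 2 or 4 (adjusted p from 0.05 to 0.0555). Peg3 had 184 to 287 CPM in controls and 93.4, 44.5, 13, 60.6 and 70.9 CPM in tumors (-1.60 ± 0.40, edgeR adjusted p = 0.0064). Ndn had 94.9 to 152 CPM in controls and 26.0, 2.99, 3.24, 0 and 40.7 CPM in tumors (-2.91 ± 0.79, edgeR adjusted p = 0.00955), below the controls in every tumor. Cdkn1c had 7.91 to 17.0 CPM in controls and 23.0, 38.6, 32.4, 103 and 209 CPM in tumors (3.06 ± 0.72, edgeR adjusted p = 0.00451). In tumors 2 to 5 this was lower than the level of the gene in free RNA, which was 86.8, 75.5, 199 and 435 CPM. The call was kept with free RNA subtracted (2.58, adjusted p = 0.0291) and lost with limma voom (2.49, adjusted p = 0.188). Subtraction of free RNA also left calls of Rian (-3.91, adjusted p = 0.0145) and Peg3 (-3.61, adjusted p = 0.0322), and Ndn no longer passed the filter. With the 10% mitochondrial limit Ndn lost its call (-2.16, adjusted p = 0.0867). Mest differed by 1.04 ± 0.75 (edgeR adjusted p = 0.278).

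Oligodendrocyte-like cells, which make myelin, had at least 20 cells in the 4 controls and in tumors 1, 2, 3 and 5, and 4 of the 10 genes passed the filter. All of these were lower and 0 were higher, where 20.9% of 3652 genes were lower and 17.7% higher. Their median was -2.09, against -0.01 over all genes. Meg3 had 2023, 1025, 4906 and 1714 CPM in controls and 271, 290, 216 and 399 CPM in tumors (-2.97 ± 0.38, edgeR adjusted p = 8.95e-06). Rian changed by -1.88 ± 0.45, Peg3 by -1.25 ± 0.29 and Ndn by -2.30 ± 0.38 (edgeR adjusted p of 0.0029, 0.0022 and 0.000104). Rian and Ndn averaged 126 and 117 CPM in controls and 38.8 and 24.6 CPM in tumors. Both passed the filter through the controls, where they are high. Snap25, a neuron marker, was at 700 to 1045 CPM in these control cells and 15.4 to 182 CPM in the tumor cells, and free RNA moved with these decreases. With free RNA subtracted, Meg3 kept its call (-6.63, adjusted p = 0.00518), while Rian, Peg3 and Ndn no longer passed the filter on low counts and had no test. In tumor 2 the free RNA subtracted exceeded the Meg3 counts, which were set to 0. Cdkn1c was not tested and had 7.95 to 33.7 CPM in controls and 47.9, 62.3, 57.8 and 241 CPM in tumors.

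In endothelial-like cells, which line vessels, 6 genes were tested, 0 were higher (13.2% of 6703 genes) and 2 were lower (13.4%), with a median of -1.75 against 0.04 over all genes. Meg3 had 1014 to 2398 CPM in controls and 12.9 to 683 CPM in tumors (-2.33 ± 0.69, edgeR adjusted p = 0.0244), and the call was lost without control 1 or 4 (adjusted p of 0.067 and 0.0737). Peg3 had 140 to 262 CPM in controls and 18.3 to 85.9 CPM in tumors (-1.63 ± 0.37, edgeR adjusted p = 0.00634). Rian changed by -1.87 ± 0.66 and did not pass (edgeR adjusted p = 0.0516), but it did without tumor 1, 4 or 5 (adjusted p from 0.0278 to 0.0431). Ndn differed by -2.24 ± 0.95 (edgeR adjusted p = 0.0969), and without tumor 5 by -4.14 (adjusted p = 0.00295). Grb10 differed by 0.20 ± 0.34 (edgeR adjusted p = 0.707) and Cdkn1c by 1.43 ± 0.80 (edgeR adjusted p = 0.204). Snap25 was at 493 to 756 CPM in these control cells and 1.98 to 151 CPM in the tumor cells. With free RNA subtracted, Meg3 kept its call (-4.17, adjusted p = 0.0189), Rian passed (-3.58, adjusted p = 0.026), and Peg3 no longer passed the filter on low counts. In tumor 4 the free RNA subtracted exceeded the Meg3 counts, which were set to 0.

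In astrocyte-like cells 5 genes were tested, of which Mest was higher, 1 gene where 15.1% of 6717 genes were, and Meg3 and Peg3 were lower, 2 genes where 15.6% were. The members had a median of -0.87 and all genes of 0.03. Mest had 16.6, 6.56, 24.8 and 6.44 CPM in controls and 17.0, 73.8, 21.7, 60.2 and 74.8 CPM in tumors, with tumors 1 and 3 inside the control range (1.81 ± 0.58, edgeR adjusted p = 0.0265). The control values rest on 1, 2, 10 and 2 UMIs, and the gene passed the filter through the tumors. Meg3 had 1093 to 2432 CPM in controls and 68.4 to 950 CPM in tumors (-1.46 ± 0.51, edgeR adjusted p = 0.0393), and Peg3 298 to 345 CPM and 174 to 256 CPM (-0.64 ± 0.23, edgeR adjusted p = 0.0474). The Meg3 call was lost without control 2, 3 or 4 or tumor 2 or 5, and the Mest call without control 2 or 4. Without any 1 of the tumors Mest did not pass the filter and had no test. The Peg3 call was lost without any 1 of the controls or without tumor 4 or 5. Rian (-0.87 ± 0.52, edgeR adjusted p = 0.218) and Ndn (-1.43 ± 0.57, edgeR adjusted p = 0.0704) did not pass, and without tumor 5 Ndn passed at -2.26 (adjusted p = 0.00499). Snap25 was at 662 to 1185 CPM in these control cells and 1.63 to 270 CPM in the tumor cells. With free RNA subtracted, Meg3 kept its call (-2.55, adjusted p = 0.0283), Peg3 lost it (-0.85, adjusted p = 0.102) and Mest no longer passed the filter. With a limit of 10% mitochondrial UMIs, Meg3 (-0.51, adjusted p = 0.497), Peg3 (-0.64, adjusted p = 0.0834) and Mest (1.53, adjusted p = 0.131) all lost their calls.

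**Figure D5:**
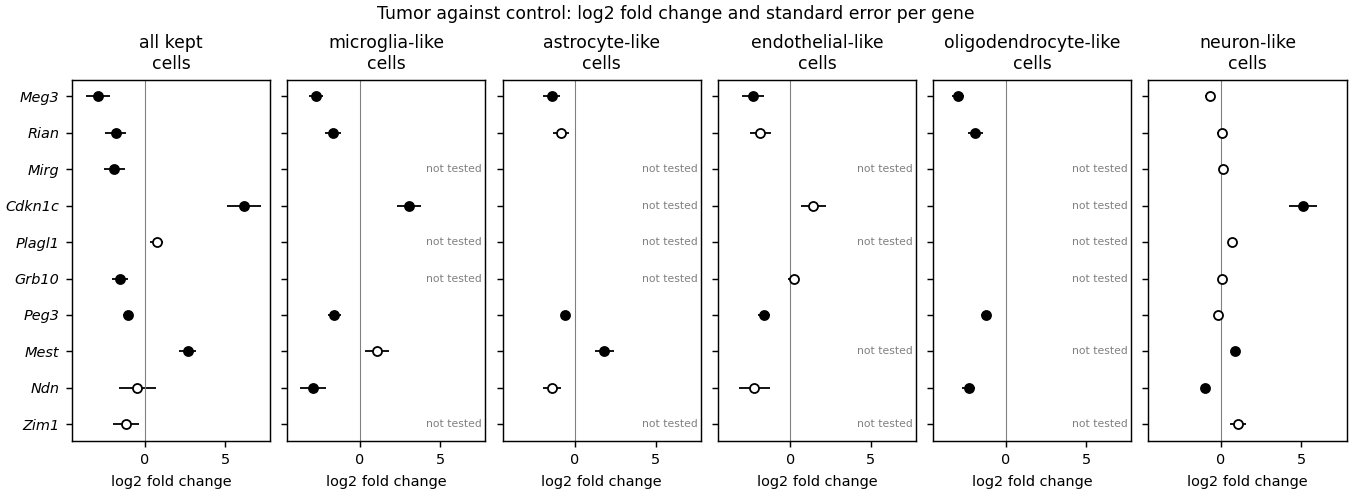
Log2 fold changes of tumor against control with their standard errors, from the edgeR fit to all genes, for the 10 imprinted genes in all kept cells and in 5 marker-gated classes (filled symbols pass an adjusted p under 0.05, open symbols do not). Meg3 is below 0 in all 6 panels and filled in 5 of them, while in neuron-like cells only Cdkn1c, Mest and Ndn are filled.

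Progenitor-like cells had too few control cells for a comparison between groups, so they were set against the astrocyte-like cells of the same 5 tumors, with the mouse as a block. Of 6 genes tested, Cdkn1c and Mest were higher, 2 genes where 17.2% of 7891 genes were, and 0 were lower, where 19% were. The members had a median of 0.53 and all genes of 0.01. Cdkn1c was higher in progenitor-like cells of each tumor, with 3.09, 26.0, 10.8, 16.3 and 225 CPM in the astrocyte-like cells (4.44 ± 0.46, edgeR adjusted p = 3.29e-06). The gene passed the filter through the progenitor-like cells, and in the tumor-control fit of astrocyte-like cells it had not passed. Mest was also higher in each tumor (2.46 ± 0.30, edgeR adjusted p = 1.48e-05). With cells of the fusion allele in place of progenitor-like cells, a choice made after seeing the data, the values were 4.65 for Cdkn1c and 2.25 for Mest, and both passed. Astrocyte-like cells had been left out of the cells with the fusion allele. Meg3 (0.32 ± 0.28, edgeR adjusted p = 0.395), Rian (0.57 ± 0.28, 0.129), Peg3 (0.42 ± 0.19, 0.106) and Ndn (0.49 ± 0.33, 0.266) did not pass.

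Within progenitor-like cells, cycling cells were compared with non-cycling cells in tumors 2, 4 and 5, the tumors with enough of both. Non-cycling cells were 337 of 524, 1641 of 2173 and 224 of 374 cells. They held 2183933 of 4050591, 12448140 of 18224277 and 992320 of 2219195 UMIs, so the cycling cells were deeper. The part of depth in the differences was not tested. Meg3 and Rian were lower in cycling cells, 2 of 7 genes where 11.7% of 10912 genes were lower, and 0 were higher, where 14.9% were. The members had a median of -0.10 and all genes of -0.03. Meg3 had 203, 77.6 and 1098 CPM in cycling and 400, 193 and 1328 CPM in non-cycling cells (-0.78 ± 0.14, edgeR adjusted p = 0.000581). The Meg3 call was lost with free RNA subtracted (-1.69, adjusted p = 0.0959) and with no replicate block (-0.44, adjusted p = 0.986). Rian had 16.6, 14.2 and 232 CPM in cycling and 35.7, 30.0 and 236 CPM in non-cycling cells (-0.53 ± 0.18, edgeR adjusted p = 0.0414), a call lost without tumor 2 or 4 (adjusted p of 0.102 and 0.323). The Rian call was also lost with DESeq2, limma voom, the mitochondrial limit, no replicate block and free RNA subtracted. Cdkn1c, the cell cycle inhibitor, had 168, 430 and 2104 CPM in cycling and 265, 634 and 1342 CPM in non-cycling cells. It was thus lower in the cycling cells of tumors 2 and 4 and higher in those of tumor 5, and the difference over the 3 tumors was -0.10 ± 0.17 (edgeR adjusted p = 0.724). Without tumor 5 it was -0.51, in a fit of tumors 2 and 4 only, which are too few to measure the spread between mice.

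Whether the tumor-control difference itself varied between classes was tested with exact permutations of the mice for 10 pairs of classes and the 10 genes, on log2(CPM + 10). Of 100 two-sided tests, 18 had a p under 0.05 and 0 passed after Benjamini-Hochberg adjustment (smallest adjusted p = 0.179), with no p under 0.00794 possible for 5 against 4 mice (30 tests) and none under 0.0286 for 4 against 4 mice (70 tests, those with neuron-like or oligodendrocyte-like cells). Over 100 tests, a p at these limits passes the adjustment only when many tests share it, so the count of 0 does not decide the question. At the smallest raw p of 5 against 4 mice, the difference of Meg3 was lower by 1.6 in microglia-like than in astrocyte-like cells. Likewise that of Grb10 was lower in microglia-like (1.08) and astrocyte-like (1.21) than in endothelial-like cells. The smallest raw p of 4 against 4 mice was reached by 11 tests. Of these, 10 had a lower difference in a non-neuronal class than in neuron-like cells. They were Meg3 (2.20), Peg3 (1.93), Rian (1.76) and Ndn (1.70) in microglia-like, Rian (1.66), Peg3 (1.58) and Plagl1 (1.31) in endothelial-like, Meg3 (2.21) and Peg3 (1.21) in oligodendrocyte-like and Grb10 (1.15) in astrocyte-like cells. The other was Grb10, lower in oligodendrocyte-like than in endothelial-like cells (1.24). Free RNA, estimated at a larger part of microglia-like and endothelial-like cells in controls than in tumors, was not subtracted in these tests.

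Of the 57 other imprinted genes, fewer were tested by class. In microglia-like cells 8 of 28 were higher and 11 lower, where 20.6% and 23.8% of all tested genes were. In astrocyte-like cells these were 8 and 7 of 28 (15.1% and 15.6% of all genes), in endothelial-like cells 5 and 6 of 23 (13.2% and 13.4%), in oligodendrocyte-like cells 6 and 5 of 17 (17.7% and 20.9%), and in neuron-like cells 7 and 5 of 40 (8.99% and 9.37%). Apart from the Igf2 pathway, Nnat was among the 3 largest increases in 4 of these 5 classes, with a log2 fold change of 2.25 in microglia-like, 2.92 in astrocyte-like, 2.45 in endothelial-like and 2.45 in neuron-like cells. Rasgrf1, an exchange factor of Ras expressed in neurons, was among the largest decreases of the non-neuronal classes, at -3.36, -2.98, -3.28 and -3.67 in microglia-like, astrocyte-like, endothelial-like and oligodendrocyte-like cells. Free RNA was estimated at 52.1% to 64.5% of the UMIs of microglia-like and endothelial-like cells in controls and 11% to 24.9% in tumors. Its part in the values of Nnat and Rasgrf1 was not tested. Against astrocyte-like cells of the tumors, 8 of 27 were higher in progenitor-like cells, led by Begain at 1.41, and 6 were lower, led by Gatm at -1.85, where 17.2% and 19% of all genes were. In cycling progenitor-like cells 3 of 29 were higher and 10 lower, where 14.9% and 11.7% were.

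The genes most like each member were found by the rank correlation of CPM over 73 sums of mouse and class, among 16446 genes. The points share libraries and free RNA, so the values describe these data and carry no test. For Meg3 they were Rian (rho 0.93), Snhg11 (0.912) and B230334C09Rik (0.88), and Mirg was most like Rian (0.826). Cdkn1c was most like Rps27l (0.787), Lsm4 (0.778) and Rpl36 (0.773), and Mest most like Mdk (0.795), Mia (0.784) and Cdh22 (0.775). Peg3 was most like Eml5 (0.878), Map2 (0.871) and Negr1 (0.858), Ndn most like Bex1 (0.787), Gad2 (0.777) and Lonrf2 (0.773), and Grb10 most like Sptbn1 (0.83), Mprip (0.815) and Rapgef4 (0.792). Plagl1 (Thbs3, 0.553) and Zim1 (Zfp804a, 0.682) had no gene as close. Between members, Cdkn1c and Mest had a rho of 0.635, and Cdkn1c and Meg3 of -0.482.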

How the data were processed

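Droplet 5′ single-cell libraries of 4 control brains and 5 tumors were analysed, 1 library per mouse, with groups and replicate numbers from the sample records. The records number the replicates without stating that each is a separate mouse. Each was taken as 1 mouse, and p-values measure the spread between these samples. The authors ran Cell Ranger against mm10 (version 6.1.2 in the file headers, 7 in the processing notes), and deposited raw UMI counts, by gene and by barcode, without any scaling. For control 4 the gene list was 2 rows and the barcode list 22 entries shorter than the matrix, so the list of the other libraries was used.

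The 10000 barcodes with most UMIs of each library were considered, or all 9001 of tumor 3, whose free RNA profile thus came from barcodes that were also considered as cells. Those with 200 to 6000 genes were kept, after removal of the high-mitochondrial component of a Gaussian mixture (scikit-learn 1.9.0) and of Scrublet doublets (Scanpy 1.11.5, 1.38% to 5.38%). In tumors 4 and 5 the removed component averaged 3.68% and 4.84% mitochondrial UMIs. There the mixture left 5350 of 9995 and 3758 of 9996 barcodes, of which 9974 and 9927 were within a 10% mitochondrial limit. Kept cells held 5902794 to 37644349 UMIs a library. Cells were gated from fixed lists of 8 markers: at least 3 markers detected and 2 more than the next class. Their marker UMIs also had to exceed what free RNA would give (Poisson tail 0.0001). Free RNA was that of the library, or of the controls for progenitor-like, neuroblast-like and oligodendrocyte precursor-like cells. Neurons were gated last and without this condition. Neuron markers summed to 3739 to 4298 CPM in control neuron-like cells and 4321 to 4864 CPM in control free RNA. In 4 tumors these were 2445 to 5746 CPM and 1205 to 2808 CPM. The gating rule was chosen once the data had been seen. It left 25.2% of control and 36.8% of tumor cells ungated, and 13.7% and 13.0% of gated non-neuronal cells lay exactly at the minimum. Libraries (control 4 not counted) shared 1 to 9 barcodes a pair, and no pair of libraries of a group was a duplicate.

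UMIs were summed per mouse and class with at least 20 cells and tested over all genes in R 4.3.3 by edgeR 4.0.16 (quasi-likelihood F test), with TMM scaling, filterByExpr and Benjamini-Hochberg adjustment at 0.05, and the script was tested on simulated data. DESeq2 1.42.0, limma voom 3.58.1, no filter, a replicate block, each mouse left out, a 10% mitochondrial limit, free RNA subtracted, a gate of 4 markers and a minimum of 50 cells were alternatives. All 10 members were named, and of the other listed imprinted genes up to 3 called genes per direction and comparison with the largest change. The members and lists were chosen with earlier results of these data known. Sequences came from RefSeq tables. A detection floor is 3 UMIs, for counting error only.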

Additional observations from a re-analysis of the deposited data

Results flagged for a closer look

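In 28 groups of 4 or 5 mice examined for a single distant value, 2 were set apart by Dixon's test at the 95% level, which chance does in about 1 of 20 groups. Ndn in all kept cells of tumor 5 was 242.8 CPM, while the other 4 tumors had 0.133 to 54.4 CPM, and the gap to the nearest was 0.776 of the range. In that tumor Ndn was 407 CPM in neuroblast-like and 229 CPM in progenitor-like cells, and Magel2, a neighbor of Ndn, was 6.65 CPM in all kept cells against 0.118 to 5.25 CPM in the other tumors. Zim1 in all kept cells of tumor 1 was 15.6 CPM, while the other tumors had 0.611 to 1.55 CPM, and the gap was 0.937 of the range. Tumor 1 also had the largest share of neuron-like cells among the tumors (30.6%), and its neuron-like cells had 32.2 CPM of Zim1. The part of either in these values was not tested.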

How the results depend on the processing

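Of 796 values of the members under alternatives, 661 kept their direction and side of the threshold, 71 lost a call, 36 gained one and 28 changed sign. The number of members called moved from 3 to 5 without a filter, 0 with the 10% mitochondrial limit and 1 with free RNA subtracted in astrocyte-like cells. In endothelial-like cells it moved from 2 to 4 with limma voom, 5 without a filter and 4 with the replicate block, and in oligodendrocyte-like cells from 4 to 1 with free RNA subtracted. In neuron-like cells it moved from 3 to 5 with DESeq2, 1 with limma voom and 1 with the replicate block. Progenitor-like against astrocyte-like cells gave 6 without a filter instead of 2. Cycling against non-cycling cells gave 1 with DESeq2, 1 with limma voom, 0 with no replicate block, 1 with the mitochondrial limit and 0 with free RNA subtracted instead of 2. Leaving out each mouse gave 4 to 8 in all kept cells, 4 to 6 in microglia-like, 0 to 2 in astrocyte-like, 1 to 4 in endothelial-like, 4 to 5 in oligodendrocyte-like, 2 to 4 in neuron-like, 2 to 3 in progenitor-like against astrocyte-like and 1 to 4 in cycling cells. With free RNA subtracted, some called genes had no test because they no longer passed the filter: Ndn in microglia-like, Mest in astrocyte-like, Peg3 in endothelial-like, Rian, Peg3 and Ndn in oligodendrocyte-like and Cdkn1c in neuron-like cells. Mest in astrocyte-like cells had none with the replicate block or without any 1 tumor either. The cause of the other shifts was not tested.

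Sign changes of log2 fold changes were as follows. With free RNA subtracted, Ndn became 12.73 in all kept cells (adjusted p = 0.0169) and 10.44 in neuron-like cells (adjusted p = 0.000328), because the scaled free RNA exceeded its counts in controls, and the Meg3 call of all kept cells was lost (-3.61, adjusted p = 0.0985). Under the same subtraction Grb10 became -0.14 in endothelial-like cells, and Rian -0.59, Mirg -0.59 and Grb10 -0.25 in neuron-like cells. The other changes in neuron-like cells were -0.056 for Rian, -0.0043 for Grb10 and -0.10 for Zim1 with limma voom, -0.038 for Rian and -0.0021 for Grb10 without a filter, -0.20 for Grb10 with the replicate block, and -0.033 for Rian and -0.057 for Mirg with the mitochondrial limit. Leaving out each mouse gave -0.29 (without tumor 1) to 0.18 (without tumor 2) for Rian, -0.48 to 0.36 for Grb10, -0.82 to 1.42 for Zim1 and -0.13 to 0.36 for Mirg, with the same 2 mice at the ends, and -0.05 for Mirg without tumor 3. In progenitor-like against astrocyte-like cells Ndn went from -0.036 without tumor 5 to 0.64 without tumor 2. In cycling cells Cdkn1c became 0.30 with no replicate block and went from -0.51 without tumor 5 to 0.13 without tumor 4. Plagl1 became -0.020 with no replicate block and -0.049 with a gate of 4 markers, and went from -0.36 without tumor 4 to 0.38 without tumor 2. Mest became 0.0070 without tumor 4 and Ndn -0.039 with the mitochondrial limit.

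Counts of all genes called moved from 2693 to 753 with the replicate block in neuron-like cells, from 2895 to 292 with no replicate block in cycling cells and from 2861 to 1844 with none in progenitor-like cells. Same-numbered mice of the groups deviated together with r of 0.103, 0.0572, 0.0123 and 0.0622, so the numbers do not pair them. The mitochondrial limit was not run in endothelial-like cells. With a minimum of 50 cells, oligodendrocyte-like cells kept 1 control, assumed to vary like the other mice. Low counts left 4 to 6 members testable in the non-neuronal classes.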

Other observations

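In neuron-like cells, the ratio of Rian to Meg3 did not pass its adjusted test. Rian UMIs were 5.36%, 5.53%, 4.82% and 5.37% of Meg3 UMIs in controls 1 to 4 and 10.2%, 6.17%, 7.26% and 10.8% in tumors 1, 2, 3 and 5, so the groups did not overlap. The means were 5.27% ± 0.309 (SD, n = 4) and 8.60% ± 2.24 (SD, n = 4), with a two-sided exact permutation p of 0.0286, the smallest possible here, and an adjusted p of 0.0571 over the 2 ratios. For Mirg the means were 0.748% and 1.28% (exact permutation p = 0.143). Both ratios were chosen after their values were seen. In free RNA Rian was 11% to 13.9% of Meg3 in controls and 8.36% to 27.5% in tumors, and its part was not tested.

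Ndn in tumor 4 was at 5 UMIs (0.133 CPM) in all kept cells. Magel2, next to it, had 11 UMIs there (0.292 CPM) and 0.118 to 6.65 CPM in the other tumors, and Mkrn3 had 0.85 CPM there and 0.652 to 4.83 CPM in the others. Snrpn, further along the same chromosome region, had 30.5 CPM there and 41.8 to 96.5 CPM in the others.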
